A study of Homo sapiens with 12 samples.

Results

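Genes of mitosis and the mitotic spindle were examined as a list of 45 genes in human liver spheroid co-cultures exposed to total parenteral nutrition (TPN). The genes were chosen by name, with earlier results of these data known. All 45 were found among the 16705 genes of the expression table, and all 45 passed the filter of a mean of at least 0.5 FPKM over the 12 libraries, which left 11713 genes to be tested. FPKM is the number of sequenced fragments of a gene, scaled by the length of its transcript and by the fragments mapped in the library. The spheroids were grown from C3A cells, a clone of HepG2 hepatoma cells with features of hepatocytes, with a minority of LX-2 cells, an immortalized line of activated hepatic stellate cells, and all 4 groups shared both lines and the same serum-containing medium. The groups were untreated spheroids at 24 h, spheroids exposed to 1% TPN for 24 h, untreated spheroids at 144 h and spheroids exposed to 1% TPN for 144 h, with 3 libraries in each. TPN is the intravenous feeding mixture of amino acids, electrolytes, glucose, lipid emulsion, trace elements and vitamins, here diluted in culture medium. Exposure began once the spheroids had formed, so the untreated spheroids at 144 h were also older than those at 24 h. Many spheroids were pooled for each library, and each line came from 1 immortalized source that divides in culture, so the model stands for dividing cells and not for the resting hepatocytes of adult liver.

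Mitosis begins when cyclin B and CDK1 become active, chromosomes condense, and microtubules build a bipolar spindle whose fibres attach to each chromosome at its kinetochore. The spindle checkpoint holds the cell until every kinetochore is attached, after which the anaphase-promoting complex tags securin and cyclin B for destruction, separase cuts cohesin, and the cell divides at the midzone. Most of these genes are transcribed late in the cell cycle, through promoters bound by the MuvB core with the repressive DREAM complex in resting cells and with MYBL2 and FOXM1 in dividing cells, often at an element named the cell cycle genes homology region (CHR). In liver, hepatocytes are mostly quiescent and express these genes in regeneration and in tumours.

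The promoters of 39 of the 45 genes were present in the RefSeq table of promoters on GRCh38.p14, which gives 250 bases before and 50 after each start; AURKA, BIRC5, FOXM1, TPX2, TTK and UBE2C had no entry. A CHR match, taken as TTTGAA or TTCGAA on either strand, was held by 28 of 39 promoters (71.8%), against 1634 of the 13333 genes of the expression table with a promoter (12.3%). From 75 bases before to 50 after the start the counts were 25 of 39 (64.1%) and 535 of 13333 (4.0%). A CCAAT box on either strand was held by 31 of 39 (79.5%) against 36.3%, and CHR and CCAAT together by 24 of 39 (61.5%) against 5.1%. An E2F-like match on either strand (TTCCCGC or else TTGGCGC, and likewise TTCGCGC or else TTGCCGC) was held by 10 of 39 (25.6%) against 18.7%. The 5 sequences below are the promoters with a CHR match whose genes had the lowest log2 fold changes under TPN at 144 h, and UBE2S is shown because it was the only gene of the 45 to be higher there. UBE2S was chosen for printing after its values were seen. Capitals mark CHR matches and CCAAT boxes on either strand; all sequences run 5′ to 3′ along the gene's strand.
SPC25 promoter, chr2:168890381-168890680, minus strand: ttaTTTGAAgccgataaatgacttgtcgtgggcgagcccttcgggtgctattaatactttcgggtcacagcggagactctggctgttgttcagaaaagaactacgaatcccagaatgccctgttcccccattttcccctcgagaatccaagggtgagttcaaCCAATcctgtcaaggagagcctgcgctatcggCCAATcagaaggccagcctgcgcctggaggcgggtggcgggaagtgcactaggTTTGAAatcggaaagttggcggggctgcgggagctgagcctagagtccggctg
ESPL1 promoter, chr12:53268049-53268348, plus strand: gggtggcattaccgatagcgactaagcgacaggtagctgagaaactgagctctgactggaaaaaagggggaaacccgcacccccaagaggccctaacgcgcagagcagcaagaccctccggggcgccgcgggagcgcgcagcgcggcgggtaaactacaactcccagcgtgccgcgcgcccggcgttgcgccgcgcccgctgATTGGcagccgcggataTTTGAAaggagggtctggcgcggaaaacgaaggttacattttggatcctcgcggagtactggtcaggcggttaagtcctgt
CCNB2 promoter, chr15:59104896-59105195, plus strand: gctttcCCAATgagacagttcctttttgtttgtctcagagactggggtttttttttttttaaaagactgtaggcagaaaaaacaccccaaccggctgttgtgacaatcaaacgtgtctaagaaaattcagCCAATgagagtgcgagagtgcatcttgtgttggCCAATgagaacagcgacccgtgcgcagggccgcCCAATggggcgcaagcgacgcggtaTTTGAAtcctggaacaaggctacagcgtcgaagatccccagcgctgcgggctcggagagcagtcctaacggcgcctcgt
KIF11 promoter, chr10:92592880-92593179, plus strand: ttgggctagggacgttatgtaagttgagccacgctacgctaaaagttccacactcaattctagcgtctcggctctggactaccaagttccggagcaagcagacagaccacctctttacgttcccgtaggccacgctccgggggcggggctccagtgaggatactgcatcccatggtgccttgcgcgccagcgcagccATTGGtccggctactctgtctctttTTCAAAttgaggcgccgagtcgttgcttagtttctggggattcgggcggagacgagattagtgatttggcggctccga
ANLN promoter, chr7:36389612-36389911, plus strand: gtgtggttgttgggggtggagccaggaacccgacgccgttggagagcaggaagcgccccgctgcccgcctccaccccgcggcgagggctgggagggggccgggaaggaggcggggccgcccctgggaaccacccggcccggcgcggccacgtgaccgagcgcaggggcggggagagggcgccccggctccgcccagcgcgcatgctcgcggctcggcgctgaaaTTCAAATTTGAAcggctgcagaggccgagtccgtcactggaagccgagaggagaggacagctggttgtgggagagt
UBE2S promoter, chr19:55407739-55408038, minus strand: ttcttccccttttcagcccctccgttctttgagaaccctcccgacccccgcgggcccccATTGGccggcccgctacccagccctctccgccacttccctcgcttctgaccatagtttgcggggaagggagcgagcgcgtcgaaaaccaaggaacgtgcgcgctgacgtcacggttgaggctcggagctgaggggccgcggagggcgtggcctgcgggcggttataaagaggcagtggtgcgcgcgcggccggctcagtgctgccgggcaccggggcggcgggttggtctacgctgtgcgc
SPC25, ESPL1, CCNB2, KIF11 and ANLN hold a CHR match close to the start, and in ANLN 2 of them abut on opposite strands. CCNB2 holds 4 CCAAT boxes ahead of its CHR match. UBE2S holds 1 CCAAT box and no CHR match in this window. A match describes letters only, and the search misses a site with other letters, at another start or outside the window. The median log2 fold change under TPN at 144 h was -0.56 over the 28 genes with a CHR match and -0.59 over the 11 without one. CDC25C, AURKB, CCNA2 and KIF20A, at -0.82, -0.72, -0.70 and -0.70, had no exact CHR match in this window. Whether the motif bears on the response was not tested.

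The 12 libraries were alike in scale. FPKM summed to between 561657 and 583722 per library, between 10936 and 11074 genes reached 1 FPKM, and the steps between low values in 87 short genes gave a depth of about 1.83e+07 fragments per library (1.79e+07 to 1.85e+07, 95% interval of the slope). At that depth the least covered of the 45 genes, SPC25, rested on about 162.5 fragments in its lowest library and MKI67, the best covered, on about 3717. These depths cover counting error only. No library repeated the values of another.

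The level of the 45 genes as a group stood highest in untreated spheroids at 24 h and fell with time and with TPN. Their FPKM summed to 2285.5 ± 12.6 in untreated spheroids at 24 h (SD, n = 3, range 2274.1 to 2298.9), to 2090.2 ± 27.1 under TPN at 24 h (2066.8 to 2119.8), to 1588.3 ± 28.9 in untreated spheroids at 144 h (1563.2 to 1619.9) and to 1087.3 ± 19.04 under TPN at 144 h (1065.7 to 1101.7). The sum under TPN was 8.54% below that of untreated spheroids at 24 h and 31.5% below at 144 h, and the 4 ranges did not overlap. As a share of all FPKM in the library the list took 0.404%, 0.367%, 0.278% and 0.188% in the same order. In 44 of the 45 genes the group means of FPKM, without further scaling of libraries, followed that order, with UBE2S the exception. In the same values 33 had a mean under TPN at 144 h below 50% of that of untreated spheroids at 24 h. Median ratio scaling and quantile normalization, given below, made the changes with time smaller, and neither count was taken under them. Under the median ratio CDC25C left the order. It had a log2 fold change of -0.14 with time in untreated spheroids, and -0.27 to -0.18 with TPN at 24 h over all alternatives. In libraries from whole spheroids, fewer cells in mitosis and less of each transcript per cell cannot be told apart.

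**Figure D1:**
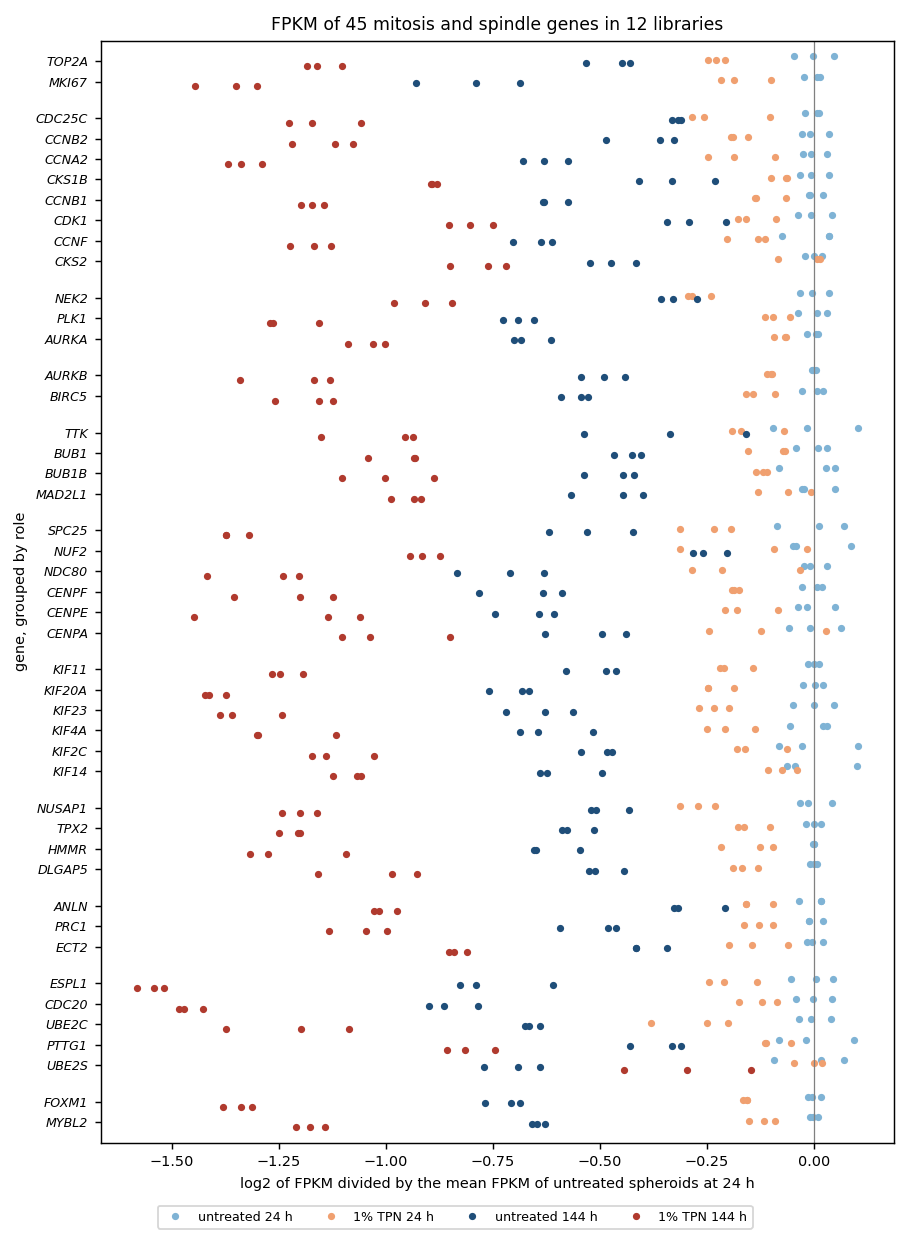
Each point is 1 library, placed on the horizontal axis by the log2 of its FPKM divided by the mean FPKM of untreated spheroids at 24 h, for the 45 genes grouped by role on the vertical axis. The TPN libraries at 144 h (red) lie furthest left in 44 genes, and in UBE2S they lie to the right of the untreated libraries at 144 h (dark blue).

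Levels were compared as log2(FPKM + 0.1) with limma in 1 fit of the 4 groups, with Benjamini-Hochberg adjustment of p values over all 11713 genes. A gene is called higher or lower at an adjusted p below 0.05, and a differentially expressed gene (DEG) also has an absolute log2 fold change above 0.58. The replicates are described as independent experiments by the study. The p values rest on the spread between libraries within groups, pooled over the 4 groups of 3 libraries. For each gene limma draws this spread towards that of genes at a similar level.

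After 24 h of exposure the mitotic genes were slightly lower under TPN. Of the 45, 20 were called lower, 0 higher and 25 were not called, while 5.46% of all genes tested were called lower and 5.04% higher. The median log2 fold change was -0.14 over the 45 genes and -0.0045 over all genes tested, and the values ran from -0.28 in UBE2C to -0.0067 in UBE2S, so that all 45 fitted values were below 0. In percent, the median change was -9.32%. Groups did not overlap, with TPN below untreated, in 36 of 45 genes and in 15.9% of all genes. No gene of the list was a DEG at 24 h, with 0 lower and 0 higher against 0.273% and 0.64% of all genes. At an unadjusted p below 0.05, 35 members were lower and 0 higher, against 23.9% of all genes in either direction. The count of 20 fell to 11, 12 or 13 when untreated replicate 1, 2 or 3 at 24 h was left out and to 12 or 11 without TPN replicate 1 or 2. It rose to 27 when only the 2 groups at 24 h were fitted, and MKI67 and AURKB were among the genes gained. Among the 20, TOP2A, KIF11, KIF20A, NUSAP1, TPX2, NEK2, UBE2C and FOXM1 passed under each of the 22 alternatives that tested them, and the other 12 lost the call under at least 1, KIF4A, CDC20 and CDK1 the most often.

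After 144 h of exposure nearly the whole list was lower. TPN lowered 44 of the 45 genes and raised 1, UBE2S, while 28.3% of all genes tested were called lower and 24.2% higher. Of the 44, 22 were DEGs, against 3.73% of all genes, and 0 members, against 5.75% of all genes, were DEGs in the other direction. The median log2 fold change was -0.56 over the 45 genes and -0.018 over all genes tested, a median change of -32.4%. Values ran from -0.82 in SPC25 and CDC25C to 0.40 in UBE2S. Groups did not overlap in any of the 45, with TPN below in 44 (30.2% of all genes) and above in UBE2S (27.2% of all genes). The line of 0.58 cuts through the middle of the list: 7 genes lay just beyond it, between 0.58 and 0.63, and 10 just short of it, between 0.53 and 0.58, MKI67 and CCNB1 among them.

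**Figure D2:**
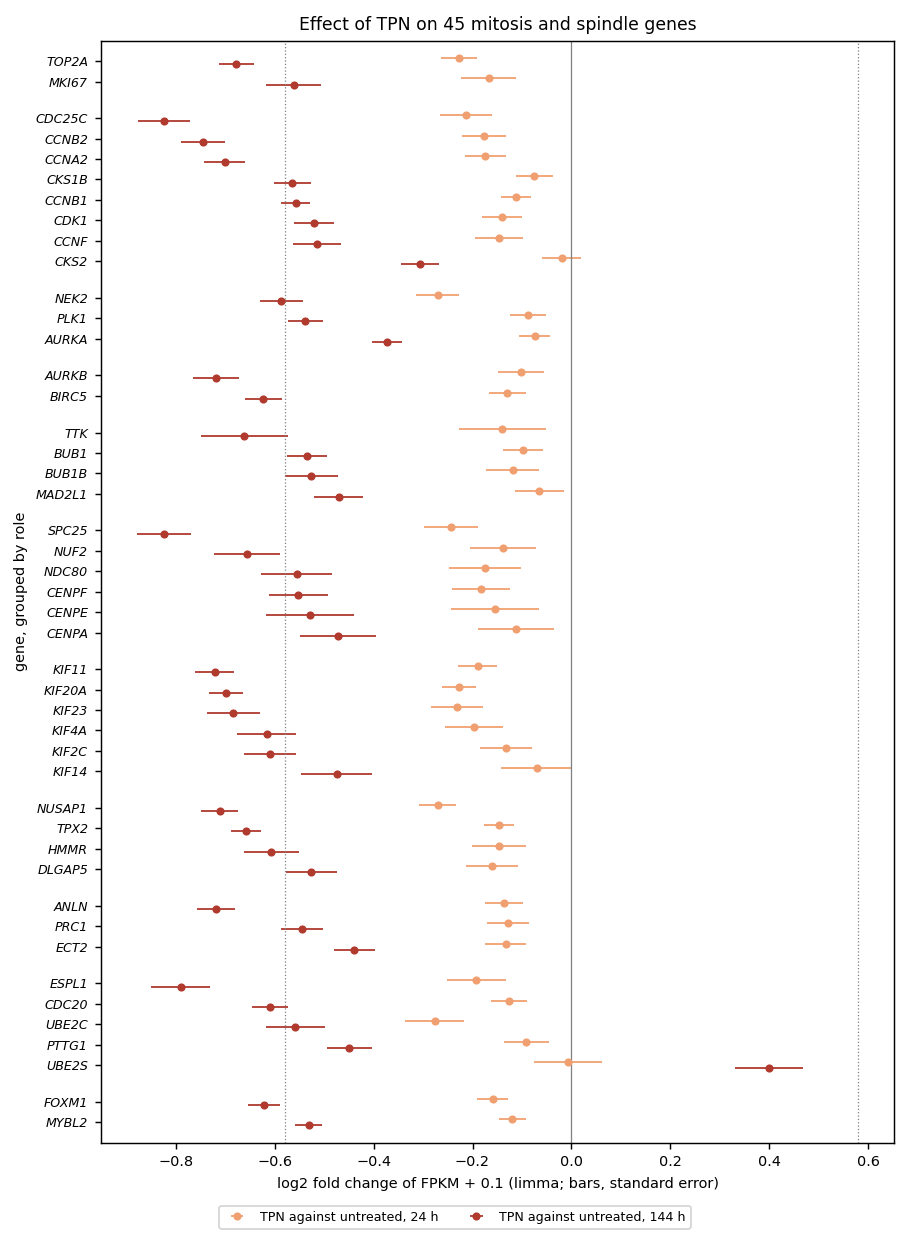
Points give the limma log2 fold change of TPN against untreated spheroids at 24 h (orange) and 144 h (red) for the 45 genes, with bars of 1 standard error and dotted lines at 0.58 in either direction. The 24 h values lie between -0.28 and 0, and the 144 h values lie left of them in 44 genes, from -0.82 to -0.31, with UBE2S alone at 0.40.

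The effect of TPN was larger at 144 h than at 24 h. The difference between the log2 fold changes, tested as an interaction, was called in all 45 genes, with the lower value at 144 h in 44 and the higher in UBE2S, against 16.3% and 14.1% of all genes. Adjusted p values ran from 3.19e-06 in TPX2 to 0.0377 in CENPE, and the median difference was -0.44. The calls of CENPE, CENPA and UBE2C were lost under at least 1 of 21 alternatives. The difference passed 0.58 in size in 5 genes, AURKB, CDC25C, ESPL1, ANLN and SPC25 (1.66% of all genes), though 1 gene passed with a pseudocount of 1, 2 without TPN replicate 2 at 144 h, and 3 without untreated replicate 2 or TPN replicate 3 at 24 h or untreated replicate 1 or TPN replicate 3 at 144 h. The 2 exposure times share no library, and across the 45 genes their log2 fold changes had a Pearson correlation of 0.637 and a Spearman correlation of 0.639. Genes are not independent replicates, and this is a description of the list.

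Time in culture moved the same genes without TPN. Between 24 h and 144 h in untreated spheroids all 45 were lower, against 52.4% of all genes, and 19 were DEGs, against 12.2%. The median log2 fold change was -0.52 over the list and -0.18 over all genes tested. When libraries were scaled by the median ratio, the all-gene median became -0.0078, genes called lower and higher numbered 3948 and 3880 in place of 6138 and 2360, the median of the list became -0.34 and its DEGs 2. Quantile normalization gave 4436 and 3408 genes, a median of the list of -0.38 and 4 DEGs. Under either scaling 43 of the 45 genes were called lower. The calls of TTK and NUF2 were lost with the median ratio (limma adjusted p of 0.122 and 0.398), and those of CDK1 and NUF2 with quantile normalization (0.0668 and 0.164). CDC20 had the largest decrease, with -0.85 (SE 0.037, limma adjusted p = 2.17e-10), and NUF2 the smallest, with -0.24 (SE 0.066, limma adjusted p = 0.0045). The fitted change with time exceeded that with TPN at 144 h in 18 genes and fell short of it in 27, but the split depended on the scaling, with 4 and 41 genes under the median ratio and 6 and 39 under quantile normalization. MKI67, AURKA, CDC20 and UBE2S were among the genes with the larger change with time under each of these scalings, whereas MYBL2, PLK1 and FOXM1 were so only without scaling or with equal library totals. These comparisons share the untreated libraries at 144 h, and the difference in size was not tested.

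In exposed spheroids the change with time was larger. All 45 genes were lower at 144 h than at 24 h under TPN, against 52% of all genes, 44 were DEGs, against 17.2%, and the median change was -49.0%. The list median was -0.97, and -0.80 with median ratio scaling or -0.81 with quantile normalization. UBE2S was the gene that was not a DEG, at -0.28 (SE 0.069, limma adjusted p = 0.00201), and under these scalings it was not called, with adjusted p values of 0.175 and 0.0760.

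**Figure D3:**
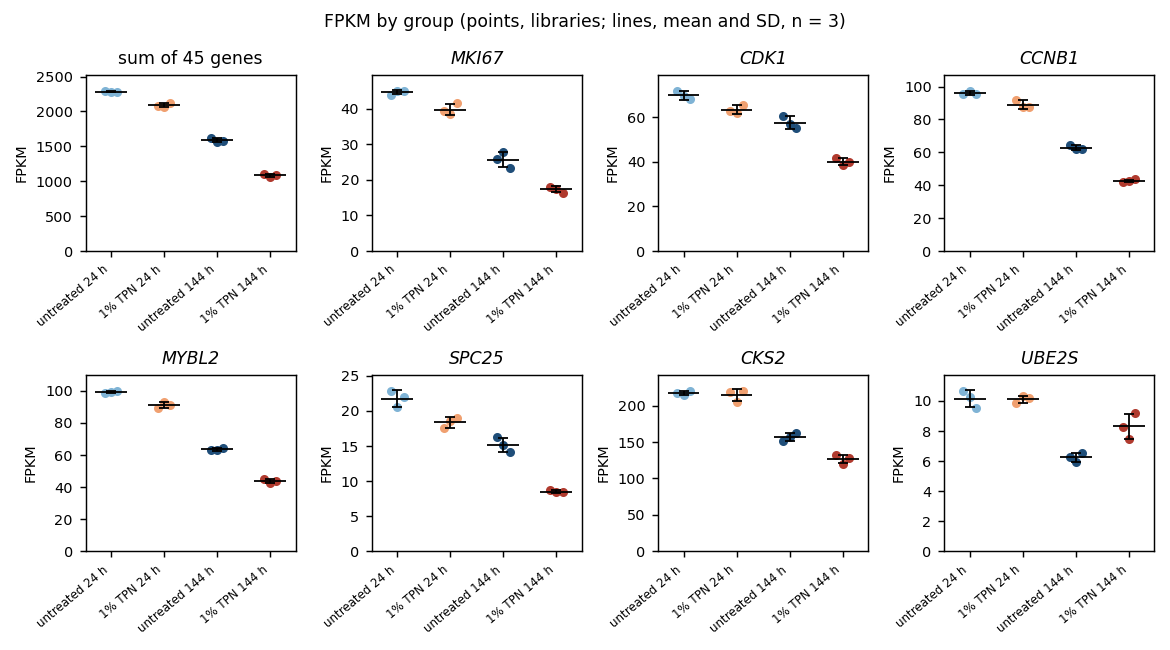
Points are FPKM in single libraries, lines the group mean and bars the SD (n = 3), for the sum of the 45 genes and for 7 genes, on axes that start at 0. The sum and 6 of the genes step down from left to right, CKS2 barely so at 24 h, whereas UBE2S stood between 7.47 and 9.18 FPKM under TPN at 144 h, above untreated spheroids of the same age.

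The proliferation marker and the DNA topoisomerase of mitosis were both lower at 144 h. For the counts by role here and below, 5.46% of all genes were called lower under TPN at 24 h. At 144 h 28.3% were called lower and 3.73% were DEGs with lower expression. MKI67, the Ki-67 antigen that coats mitotic chromosomes, had 43.9, 44.8 and 45.1 FPKM in untreated spheroids and 39.2, 38.4 and 41.6 FPKM under TPN at 24 h. At 144 h it had 25.8, 27.7 and 23.4 FPKM in untreated spheroids and 18.1, 17.5 and 16.4 FPKM under TPN. The exposed libraries lay below the untreated ones at both times without overlap. The log2 fold change was -0.17 (SE 0.056, limma adjusted p = 0.0755) at 24 h, which did not pass, and -0.56 (SE 0.056, limma adjusted p = 1.88e-06) at 144 h. TOP2A, which untangles sister chromatids, had 73.4, 75.8 and 78.4 FPKM untreated and 64.8, 63.9 and 65.7 FPKM under TPN at 24 h, and 56.4, 55.6 and 52.5 FPKM against 35.4, 33.96 and 33.4 FPKM at 144 h. All TPN libraries were below all untreated libraries of the same time. TOP2A was called at both times, with -0.23 (SE 0.036, limma adjusted p = 0.00108) and -0.68 (SE 0.036, limma adjusted p = 4.65e-09). With time in untreated spheroids MKI67 and TOP2A had log2 fold changes of -0.80 and -0.47, or -0.62 and -0.29 with median ratio scaling, and the difference between the genes was not tested.

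Among the cyclins, CDK1 and their regulators, all 8 genes were lower at 144 h and 5 at 24 h. CDK1, the kinase that drives entry into mitosis, had 71.9, 69.5 and 68.1 FPKM untreated and 62.5, 61.8 and 65.7 FPKM under TPN at 24 h, and 60.6, 57.04 and 55.1 FPKM against 41.5, 38.7 and 40 FPKM at 144 h. At both times the highest TPN library was below the lowest untreated library. The log2 fold change went from -0.14 (SE 0.041, limma adjusted p = 0.0415) to -0.52 (SE 0.041, limma adjusted p = 1.90e-07). CCNB1, the cyclin B1 partner of CDK1, had 95.4, 97.6 and 95.5 FPKM untreated and 91.96, 87.6 and 87.4 FPKM under TPN at 24 h, and 64.6, 62.1 and 62.02 FPKM against 41.9, 42.7 and 43.5 FPKM at 144 h. Its groups were separate at both times. CCNB1 changed by -7.48% at 24 h and by -32.1% at 144 h (limma adjusted p = 0.0283 and 5.10e-09).

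CDC25C, the phosphatase that activates CDK1 at mitotic entry, fell most in this group. It had 16.6, 16.3 and 16.7 FPKM untreated and 13.6, 13.8 and 15.4 FPKM under TPN at 24 h, and 13.3, 13.3 and 13.1 FPKM against 7.07, 7.94 and 7.34 FPKM at 144 h. The 3 untreated libraries at 144 h lay close together, above the exposed ones, and the groups were separate at 24 h too. The log2 fold change at 144 h was -0.82 (SE 0.053, limma adjusted p = 2.98e-08), a change of -43.5%, and with time in untreated spheroids it was -0.32, or -0.14 with median ratio scaling and -0.18 with quantile normalization. CKS2, a small subunit that binds CDK1, had the smallest decrease of the group. Its values were 217, 214 and 220.2 FPKM untreated and 218, 205 and 219 FPKM under TPN at 24 h, and 151, 156 and 163 FPKM against 132, 120.4 and 128 FPKM at 144 h. The groups overlapped at 24 h and were separate at 144 h, with -0.02 (SE 0.039, limma adjusted p = 0.819) and -0.31 (SE 0.039, limma adjusted p = 1.88e-05). The other 4, cyclins A2, B2 and F (CCNA2, CCNB2, CCNF) and CKS1B, had log2 fold changes of -0.70, -0.74, -0.51 and -0.56 at 144 h, all called. CKS1B has near-identical pseudogenes, so its level depends on how shared reads were divided.

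NEK2, AURKA and PLK1 are kinases of the centrosome and spindle poles, and of these 3 NEK2, which separates the centrosomes, was the one called lower at both times. NEK2 had 17.03, 16.6 and 16.3 FPKM untreated and 13.6, 14.1 and 13.7 FPKM under TPN at 24 h, and 13.2, 12.98 and 13.8 FPKM against 9.25, 8.86 and 8.42 FPKM at 144 h. Its TPN libraries at 24 h overlapped the untreated libraries at 144 h. The log2 fold changes were -0.27 (SE 0.044, limma adjusted p = 0.00125) and -0.59 (SE 0.044, limma adjusted p = 1.21e-07). AURKA, the Aurora A kinase of spindle poles, had 103, 105 and 104 FPKM untreated and 99.3, 97.6 and 99.4 FPKM under TPN at 24 h, and 67.9, 64.8 and 63.99 FPKM against 50.9, 48.9 and 51.96 FPKM at 144 h. Groups did not overlap at either time, but the 24 h difference did not pass, at -0.07 (SE 0.031, limma adjusted p = 0.153). At 144 h AURKA had one of the smaller decreases of the list, at -0.37 (SE 0.031, limma adjusted p = 3.18e-07), and it changed more with time in untreated spheroids, at -0.67. PLK1, the Polo-like kinase of spindle assembly, had a log2 fold change of -0.54 (SE 0.035, limma adjusted p = 3.65e-08) at 144 h and was not called at 24 h (-0.09, adjusted p = 0.143).

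The chromosomal passenger complex corrects faulty attachments at the centromere, and both of its members in the list were DEGs at 144 h. AURKB, its Aurora B kinase, had 56.02, 56.3 and 55.96 FPKM untreated and 52.02, 52.4 and 52.3 FPKM under TPN at 24 h, and 41.3, 39.96 and 38.4 FPKM against 25.6, 22.2 and 24.96 FPKM at 144 h. The replicates at 24 h were close together and separate between groups, yet the fitted change of -0.10 (SE 0.046, limma adjusted p = 0.195) did not pass. At 144 h AURKB changed by -39.2%, with -0.72 (SE 0.046, limma adjusted p = 2.81e-08). BIRC5, the survivin subunit that docks the complex, had 72.4, 74.9 and 74.2 FPKM untreated and 66.2, 66.9 and 69.4 FPKM under TPN at 24 h, and 50.7, 49.1 and 51.2 FPKM against 30.9, 33.2 and 33.9 FPKM at 144 h. All TPN libraries lay below the untreated ones, and BIRC5 was called at 24 h (-0.13, limma adjusted p = 0.038) and at 144 h (-0.62, limma adjusted p = 1.28e-08).

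The 4 spindle checkpoint genes were all lower at 144 h, and 0 of the 4 were called at 24 h, where their fitted values ran from -0.14 to -0.065. TTK, the MPS1 kinase that starts checkpoint signalling, had 11.4, 9.90 and 10.5 FPKM untreated and 9.26, 10.1 and 9.39 FPKM under TPN at 24 h, and 9.47, 7.29 and 8.38 FPKM against 5.52, 5.45 and 4.76 FPKM at 144 h. Its groups overlapped at 24 h and its untreated replicates at 144 h were widely spread, but the exposed ones were all below them. The log2 fold change at 144 h was -0.66 (SE 0.088, limma adjusted p = 2.91e-05). With time in untreated spheroids TTK fell by 0.34 on the log2 scale, and by 0.16 with median ratio scaling, where it was not called (limma adjusted p = 0.122). MAD2L1, the MAD2 protein that inhibits CDC20, had 17.2, 18.1 and 17.2 FPKM untreated and 16.8, 15.99 and 17.4 FPKM under TPN at 24 h, and 12.9, 11.8 and 13.3 FPKM against 9.16, 9.26 and 8.83 FPKM at 144 h. The groups overlapped at 24 h and were separate at 144 h, with -0.47 (SE 0.05, limma adjusted p = 3.43e-06). BUB1 and BUB1B, the kinase and the pseudokinase of the checkpoint, had -0.53 and -0.53 at 144 h.

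At the centromere and the kinetochore, 6 genes of 6 were lower at 144 h and 1, SPC25, at 24 h. SPC25, a subunit of the NDC80 complex that grips microtubules, had 22.9, 20.5 and 21.9 FPKM untreated and 17.5, 18.5 and 19.1 FPKM under TPN at 24 h, and 16.2, 15.1 and 14.2 FPKM against 8.73, 8.40 and 8.41 FPKM at 144 h. The exposed libraries were below the untreated ones at both times, and at 144 h they were close together. With -0.24 (SE 0.055, limma adjusted p = 0.0115) and -0.82 (SE 0.055, limma adjusted p = 3.97e-08), SPC25 stood level with CDC25C at the low end of the list at 144 h. CENPA, the histone H3 variant that marks centromeres, had 17.6, 19.2 and 18.2 FPKM untreated and 16.9, 18.7 and 15.5 FPKM under TPN at 24 h, and 13.5, 11.9 and 13.03 FPKM against 8.94, 10.2 and 8.54 FPKM at 144 h. Values overlapped at 24 h, where TPN replicate 2 was inside the untreated range, and did not at 144 h. CENPA was not called at 24 h and was called at 144 h, with -0.11 (SE 0.077, limma adjusted p = 0.418) and -0.47 (SE 0.077, limma adjusted p = 1.65e-04). NUF2 and NDC80, the partners of SPC25, had -0.66 and -0.56 at 144 h, and CENPE and CENPF, a kinetochore motor and a corona protein, had -0.53 and -0.55.

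Of the 6 kinesin motors, 5 were DEGs at 144 h, against 3.73% of all genes. That was the highest count of a role, but the roles differ in size, and the chromosomal passenger complex had 2 of 2. At 24 h 4 of the 6 were called lower, against 5.46% of all genes, and KIF23 and KIF4A lost that call under some alternatives. KIF11, the Eg5 motor that pushes the spindle poles apart, had 27.6, 27.4 and 27.1 FPKM untreated and 23.6, 23.5 and 24.8 FPKM under TPN at 24 h, and 19.9, 19.5 and 18.3 FPKM against 11.97, 11.5 and 11.4 FPKM at 144 h. No exposed library reached an untreated one of the same time. The log2 fold changes were -0.19 (SE 0.04, limma adjusted p = 0.00733) and -0.72 (SE 0.04, limma adjusted p = 6.49e-09). KIF14, a motor of the midbody and the member with the lowest FPKM, had 3.72, 4.11 and 3.67 FPKM untreated and 3.73, 3.56 and 3.64 FPKM under TPN at 24 h, and 2.49, 2.72 and 2.46 FPKM against 1.84, 1.83 and 1.76 FPKM at 144 h. The groups overlapped at 24 h and were apart at 144 h, where the change was -0.47 (SE 0.072, limma adjusted p = 9.10e-05). KIF20A and KIF23, motors of the midzone, KIF4A, a chromosome-bound motor, and KIF2C, which depolymerizes microtubules, had -0.70, -0.68, -0.62 and -0.61 at 144 h.

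All 4 spindle assembly proteins were lower at 144 h and 2, NUSAP1 and TPX2, at 24 h. NUSAP1, which bundles microtubules around chromosomes, had 43.4, 42.9 and 45.1 FPKM untreated and 36.3, 35.3 and 37.3 FPKM under TPN at 24 h, and 32.5, 30.8 and 30.6 FPKM against 19.6, 19.1 and 18.5 FPKM at 144 h. The 24 h groups were well separated, and its adjusted p at 24 h was the lowest of the list. The log2 fold changes were -0.27 (SE 0.037, limma adjusted p = 3.51e-04) and -0.71 (SE 0.037, limma adjusted p = 3.95e-09). DLGAP5, which stabilizes the fibres that attach to kinetochores, had 18.02, 18.2 and 18.2 FPKM untreated and 16.1, 15.9 and 16.6 FPKM under TPN at 24 h, and 13.3, 12.7 and 12.6 FPKM against 9.53, 9.16 and 8.13 FPKM at 144 h. Groups were separate at both times, with -0.16 (SE 0.052, limma adjusted p = 0.0678), not called, and -0.53 (SE 0.052, limma adjusted p = 1.89e-06). TPX2, the activator of Aurora A, and HMMR, which anchors spindle poles, had -0.66 and -0.61 at 144 h.

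The 3 genes of the midzone and of cytokinesis were lower at 144 h. ANLN, the anillin scaffold of the contractile ring, had 31.4, 30.3 and 31.5 FPKM untreated and 29.1, 27.8 and 27.8 FPKM under TPN at 24 h, and 26.9, 24.95 and 24.8 FPKM against 15.8, 15.3 and 15.4 FPKM at 144 h. The TPN libraries lay below the untreated ones at both times, with the wider gap at 144 h. ANLN had -0.14 (SE 0.039, limma adjusted p = 0.0384) and -0.72 (SE 0.039, limma adjusted p = 5.43e-09) with TPN, and -0.28 with time in untreated spheroids, where median ratio scaling and quantile normalization gave -0.10 and -0.12, both called. ECT2, which activates RhoA at the cleavage furrow, had 17.96, 18.3 and 17.8 FPKM untreated and 17.3, 15.7 and 16.3 FPKM under TPN at 24 h, and 14.2, 13.5 and 13.5 FPKM against 10.3, 9.98 and 10.1 FPKM at 144 h. The groups did not overlap at either time, and the change was called at 144 h, with -0.44 (SE 0.042, limma adjusted p = 1.25e-06), and not at 24 h, with -0.13 (SE 0.042, limma adjusted p = 0.0599). PRC1, which bundles midzone microtubules, had -0.54 at 144 h.

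Of the 5 genes of anaphase ubiquitination, securin and separase, 4 were lower at 144 h, 1 was higher, and 2 were lower at 24 h. ESPL1, the separase that cuts cohesin, had 11.4, 12.2 and 11.8 FPKM untreated and 9.96, 10.2 and 10.8 FPKM under TPN at 24 h, and 6.82, 7.73 and 6.65 FPKM against 4.12, 3.94 and 4.05 FPKM at 144 h. Exposed libraries were lower than untreated ones at both times. The log2 fold change was -0.19 (SE 0.059, limma adjusted p = 0.0561) at 24 h, which did not pass, and -0.79 (SE 0.059, limma adjusted p = 1.32e-07) at 144 h. CDC20 and UBE2C, the activator and the E2 enzyme of the anaphase-promoting complex, had -0.61 and -0.56 at 144 h and were called at 24 h too, at -0.13 and -0.28. PTTG1, the securin that holds separase, had -0.45 at 144 h, and reads shared with its near-identical copies PTTG2 and PTTG3P could be divided in more than 1 way.

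UBE2S, the E2 enzyme that extends ubiquitin chains on the complex's targets, went the other way. It had 10.7, 10.3 and 9.53 FPKM untreated and 9.84, 10.3 and 10.2 FPKM under TPN at 24 h, and 6.29, 5.96 and 6.52 FPKM against 8.28, 7.47 and 9.18 FPKM at 144 h. The groups overlapped at 24 h, and at 144 h all 3 exposed libraries were above all 3 untreated ones. UBE2S was 31.9% higher under TPN at 144 h, with a log2 fold change of 0.40 (SE 0.069, limma adjusted p = 2.83e-04), after -0.01 (SE 0.069, limma adjusted p = 0.969) at 24 h. The interaction was 0.41 (SE 0.098, limma adjusted p = 0.00702). In untreated spheroids it fell with time like the rest, by 0.69 on the log2 scale. UBE2S also has processed pseudogenes, and how their reads were assigned was not tested.

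Both transcription factors of the mitotic programme in the list were lower at both times. FOXM1, the forkhead activator of late cell cycle genes, had 46.6, 47.4 and 46.4 FPKM untreated and 41.98, 41.7 and 41.96 FPKM under TPN at 24 h, and 29.1, 27.5 and 28.7 FPKM against 18.8, 18.5 and 17.96 FPKM at 144 h. MYBL2, the B-MYB activator that binds MuvB, had 98.6, 99.1 and 99.96 FPKM untreated and 89.4, 93.1 and 91.5 FPKM under TPN at 24 h, and 63.3, 62.9 and 64.2 FPKM against 44.97, 42.9 and 43.9 FPKM at 144 h. In neither gene did exposed and untreated libraries of 1 time overlap, and replicates were tight. FOXM1 had -0.16 (SE 0.032, limma adjusted p = 0.00515) at 24 h and -0.62 (SE 0.032, limma adjusted p = 3.07e-09) at 144 h. MYBL2 had -0.12 (SE 0.027, limma adjusted p = 0.0123) and -0.53 (SE 0.027, limma adjusted p = 3.40e-09). With time in untreated spheroids FOXM1 and MYBL2 had -0.72 and -0.64, past 0.58, but -0.54 and -0.47 with median ratio scaling and -0.55 and -0.46 with quantile normalization, where neither was a DEG.

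Related lists of genes outside the 45 were set beside them. Of all genes tested, 28.3% were called lower and 24.2% higher under TPN at 144 h. Of 33 other kinetochore and checkpoint genes, 32 were lower under TPN at 144 h, 0 higher and 1 not called, with a median log2 fold change of -0.45. SPC24 and CDCA8, partners of SPC25 and AURKB, had the lowest values, -0.76 and -0.75, and BUB3 and CENPT the highest, -0.13 and -0.07, the last not called. Of 32 other kinesins, spindle and centrosome genes, 28 were lower and 4 not called (median -0.51), led by TROAP at -0.94 and KIF18A, a motor that limits chromosome movements, at -0.72. HAUS2 and HAUS6, subunits of the augmin complex, were among the 4 not called, at 0.06 and -0.09. Of 17 condensin and cohesin genes, 15 were lower (median -0.41), with the condensin subunits NCAPG and SMC2 lowest at -0.68 and -0.63, and the cohesin regulators WAPL and PDS5A not called at -0.06 and -0.04.

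The genes of the anaphase-promoting complex had a median log2 fold change of -0.09 under TPN at 144 h. Of its 16 genes, 7 were lower, 2 higher and 7 not called, against 28.3% lower and 24.2% higher among all genes, and 0 were called at 24 h, against 5.46% and 5.04%. Its inhibitor FBXO5 fell most, at -0.48, and the subunit ANAPC4 had -0.28. The subunits CDC16 and CDC26 were higher, at 0.21 and 0.25, with limma adjusted p values of 0.00139 and 0.00141. Of 9 genes of mitotic entry control, 8 were lower at 144 h (median -0.40), against the same 28.3% of all genes. The phosphatase CDC25A and the kinase PKMYT1 had -0.58 and -0.49, ENSA had -0.13, and ARPP19 was not called at 0.08.

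The 18 genes of DREAM, MuvB and the E2F family repress or activate the cell cycle promoters. At 144 h 12 were lower, 1 higher and 5 not called, with a median of -0.27. Among all genes 28.3% were called lower and 24.2% higher. The repressor E2F8 went from 3.84 ± 0.168 FPKM in untreated spheroids to 1.85 ± 0.248 FPKM under TPN at 144 h (SD, n = 3), a log2 fold change of -1.02. LIN9, a subunit of the MuvB core, went from 2.77 ± 0.176 to 1.43 ± 0.176 FPKM, a log2 fold change of -0.91. E2F6 was the one higher gene, at 0.30, and E2F4, the E2F of the DREAM complex, was not called at 0.06. Both LIN9 and E2F8 are expressed at a few FPKM, where the added 0.1 makes fold changes smaller.

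The S phase list holds genes for DNA replication. Of 35 genes, 33 were lower under TPN at 144 h, against 28.3% of all genes, 0 higher and 2 not called. The median was -0.49. GINS4 and MCM7, of the replicative helicase, had -0.72 and -0.70, and the 2 not called were CDC7 at -0.15 and CCNE2 at -0.02. At 24 h 18 of the 35 were lower (median -0.15), against 5.46% of all genes. With time in untreated spheroids all 35 were lower, against 52.4% of all genes. Their median with time was -0.72, against -0.18 over all genes, in the fit without scaling of libraries. Of 12 tested genes of G1 control, 5 were lower, 4 higher and 3 not called at 144 h, where 28.3% of all genes were called lower and 24.2% higher. CDKN1A, the p21 inhibitor of cyclin-dependent kinases, went from 35.1 ± 1.66 to 74.4 ± 2.97 FPKM under TPN at 144 h (SD, n = 3), a log2 fold change of 1.08 (limma adjusted p = 1.91e-10), and was at 0.02 at 24 h. The p15 inhibitor CDKN2B rose by 1.22 on the log2 scale from a low level of 0.79 ± 0.104 to 1.96 ± 0.179 FPKM. CCND3 and CDKN2A had 0.64 and 0.57. CDKN2C, the p18 inhibitor, fell from 8.28 ± 0.384 to 3.28 ± 0.301 FPKM, a log2 fold change of -1.31, and cyclin D1 (CCND1) had -0.43. CDKN1C did not pass the filter on low values.

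**Figure D4:**
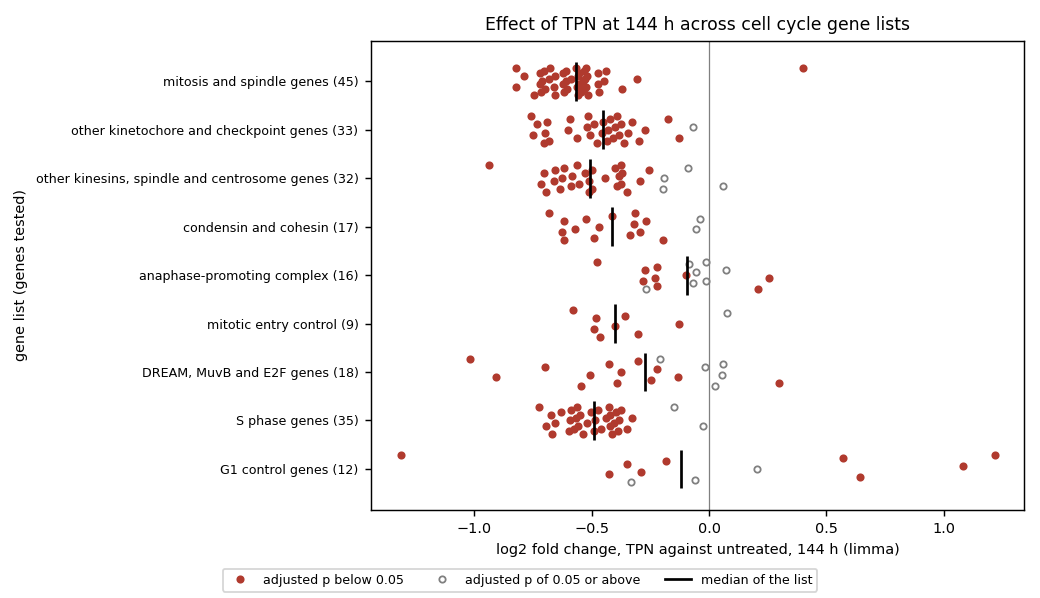
Each point is the limma log2 fold change of 1 gene for TPN against untreated spheroids at 144 h, by gene list, with filled points for adjusted p below 0.05 and black bars for list medians. The mitosis and spindle genes centre on -0.56 and the S phase genes on -0.49, while the anaphase-promoting complex centres on -0.09 and the G1 control genes spread from -1.31 to 1.22.

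Markers of the 2 cell lines were measured beside these results. Of all genes tested, 28.3% were called lower and 24.2% higher under TPN at 144 h. Of 10 hepatocyte markers, all of which passed the filter, 8 were lower under TPN at 144 h, 0 higher and 2 not called, with a median of -0.39. Their summed level went from 17406 to 18831 FPKM in untreated spheroids to 12835 to 13884 FPKM under TPN at 144 h, and from 16333 to 16636 FPKM to 14843 to 14988 FPKM at 24 h. ALB and AFP, the secreted albumin and alpha-fetoprotein, had -0.64 and -0.69 at 144 h, and SERPINA1 and FGB were not called, at -0.03 and 0.06. Of 12 stellate cell markers, 11 passed the filter and DES, at group means of 0.03 to 0.06 FPKM, did not. At 144 h 6 of the 11 were lower under TPN, 1 (LOX) higher and 4 not called. In untreated spheroids 9 were lower with time, against 52.4% of all genes, and 1 higher. Their median with time was -2.11, against -0.18 over all genes. COL1A1, the main fibrillar collagen, had 15.1 FPKM in untreated spheroids at 24 h, 1.92 FPKM at 144 h and 0.747 FPKM under TPN at 144 h. COL3A1 and COL1A1 had the lowest log2 fold changes under TPN at 144 h, -1.40 and -1.25. COL3A1 was near the floor there, at 0.503 FPKM untreated and 0.127 FPKM under TPN. LOX and SPARC had the highest, 0.18 and 0.06, and SPARC was not called. The summed stellate list stood at 197.81 to 203.86 FPKM and 188.98 to 193.99 FPKM in untreated and exposed spheroids at 24 h and at 218.04 to 228.69 FPKM and 236.82 to 239.16 FPKM at 144 h. LOX, which crosslinks collagen, took 56.6 FPKM of that sum in untreated spheroids at 24 h and 146 FPKM at 144 h. The part of these marker changes in the levels of the mitotic genes was not tested.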

How the data were processed

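RNA was sequenced from 12 libraries of spheroids, 3 in each of 4 groups taken from the sample titles. Libraries were strand-specific. The authors filtered reads (SOAPnuke), aligned them to GRCh38.p13 (HISAT2 v2.0.4) and to transcripts (Bowtie2 v2.2.5), and deposited the FPKM values of RSEM, 1 column per library. FPKM values carry no counts, so the DESeq2 analysis of the study was not repeated here. Of 16725 lines, 20 that continued a wrapped annotation were left out, which left 16705 genes.

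In limma 3.58.1 (R 4.3.3, 4 group means, eBayes with trend), log2(FPKM + 0.1) was compared for the 11713 genes with a mean of at least 0.5 FPKM, with Benjamini-Hochberg adjustment over all of them. The thresholds of 0.05 and 0.58 are those of the study. The members, gene lists and tests were chosen with earlier results of these data known, so no test was run over a list. All 45 members are described by role. Values in each library are given for MKI67, TOP2A, CDK1, CCNB1, FOXM1, MYBL2 and, in each role, the genes with the lowest and the highest log2 fold change under TPN at 144 h, and other lists are named by their 2 lowest, 2 highest and opposite genes. Promoter motifs were counted by exact match, and the window of 75 bases before the start was added after the counts over whole promoters.

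The spacing of low FPKM values gave the depth. On simulated data, 87 of 100 genes changed by 0.5 and 96 of 100 changed by 1 (log2) at 144 h were recovered among 11713 genes, with 11 calls among unchanged genes. For the difference of the TPN effect between the times, 70 and 85 of 100 were recovered, with 9 calls among unchanged genes. No change was simulated at 24 h, and none as small as those seen there. Alternatives changed the pseudocount, filter, scaling, trend and groups in the fit, added a replicate block, and left out each library in turn. Python 3.11.15 with pandas 2.3.3, numpy 2.4.6, scipy 1.17.1 and matplotlib 3.10.9 made the tables and plots.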

Additional observations from a re-analysis of the deposited data

Results flagged for a closer look

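In each of the 24 genes given by library, the response to TPN was not the same at both times by the limma interaction (the log2 fold change at 144 h less that at 24 h, adjusted p below 0.05 in all 24). The difference was -0.62 in AURKB, -0.61 in CDC25C, -0.60 in ESPL1, -0.58 in ANLN and -0.58 in SPC25. It was -0.53 in KIF11, -0.52 in TTK, -0.49 in BIRC5, -0.46 in FOXM1, -0.45 in TOP2A, -0.45 in CCNB1, -0.44 in NUSAP1, -0.41 in MYBL2, -0.41 in MAD2L1 and -0.41 in KIF14. Smaller differences of -0.39 in MKI67, -0.38 in CDK1, -0.36 in DLGAP5, -0.36 in CENPA, -0.32 in NEK2, -0.31 in ECT2, -0.30 in AURKA and -0.29 in CKS2 followed. In UBE2S the difference was 0.41, the only one above 0. Among all genes tested, 30.4% passed this test.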

How the results depend on the processing

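The count of members called lower under TPN stayed between 42 and 44 at 144 h over 22 alternatives, where the filter of 5 FPKM left fewer members to be tested, and between 11 and 27 at 24 h. At 24 h it ran from 11 to 22 when 1 library was left out. DEGs at 144 h ran from 19 to 26. The count of members whose TPN effect differed between the times by over 0.58 was 1 with a pseudocount of 1 and 3 with quantile normalization, and ran from 2 to 6 without 1 library. With time in untreated spheroids, median ratio scaling and quantile normalization gave 2 and 4 DEGs and list medians of -0.34 and -0.38, and under TPN medians of -0.80 and -0.81. The median ratio took out nearly all of the general shift between times, with all-gene medians of -0.0078 in untreated spheroids and -0.0112 under TPN. Quantile normalization took out most of it and left -0.0494 and -0.0621. At 24 h the sign turned in 2 genes near 0 without 1 library, CKS2 (-0.038 to 0.011, above 0 without TPN replicate 2) and UBE2S (-0.052 to 0.029, above 0 without untreated replicate 1 or 2 or TPN replicate 1). The SD over replicates of the list's median was 0.045. Residuals of libraries with the same replicate number correlated at -0.083 to 0.151, and those with different numbers at -0.163 to 0.077. The ranges overlap, though replicates 1 and 3 correlated above 0 with their own number in each comparison. The numbers were not taken to pair samples. With a replicate block the counts called were 20, 44, 44, 45 and 45 in the order described, with 0, 22, 5, 19 and 44 DEGs, as without it. With 3 libraries per group, single values could not reach a p below 0.1 in an exact permutation test.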
